A study of Homo sapiens with 16 samples.

Results

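The genes described here are 39 DNA damage response and repair genes, followed by RNA sequencing in VCaP cells, a human prostate cancer cell line whose TMPRSS2-ERG fusion puts the ERG gene under androgen control. They were chosen by name as 39 of the 58302 genes listed in the count files, and each matched a single row. All 39 passed the filter on low counts that left 22553 genes to test. Ver is the line after 4 months of culture with 1 µM enzalutamide, a drug that blocks the androgen receptor, and Vc is the line after 4 months with ethanol. Both lines were starved of steroids for at least 48 h in medium free of phenol red, with charcoal-stripped serum. Each line then had 24 h of 1 nM dihydrotestosterone (DHT, an androgen), DHT plus 1 µM enzalutamide, 1 µM enzalutamide alone, or control medium. This makes 8 groups of 2 libraries, 16 in all. Ver and Vc are 1 line each, and the labels do not say whether the 2 libraries of a group came from separate cultures, so p-values measure only the spread between these libraries.

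Cells mend broken DNA by several routes. Homologous recombination copies the intact sister chromatid after the broken ends are trimmed, a step called end resection, and works mainly while the genome is being copied. End joining ligates the ends directly at any stage of the cell cycle. The Fanconi anaemia pathway unhooks crosslinked strands and hands the break to recombination, while base excision and mismatch repair replace single damaged or mispaired bases. In prostate cancer, the androgen receptor is known to influence repair genes, and inherited or acquired loss of recombination genes such as BRCA2 sensitises tumours to PARP inhibitors.

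The 16 libraries held 8155244 to 13273523 counts in genes. On log2 CPM (counts scaled to a common library size), a first principal component with 44.6% of the variance placed the DHT libraries at one end, the untreated and enzalutamide libraries at the other and those with both compounds between them. The share of counted reads that fell in no gene averaged 45.4 ± 0.213% with DHT and 48.8 ± 0.250% in control in Ver, and 47.0 ± 0.130% with DHT and 50.4 ± 0.342% in control in Vc (SD, n = 2). All 7 VCaP and prostate epithelial markers were present in every library. The summed leukocyte markers stayed at or below 1.61 CPM and the summed endothelial markers at or below 5.34 CPM. All Ver libraries were run on lane 2 and all Vc libraries on lane 8, so lane and line cannot be told apart. CPM values use TMM-adjusted library sizes, log2 changes and their standard errors (SE) come from edgeR's quasi-likelihood fit, and a gene is called where its p, adjusted over the 22553 genes by Benjamini-Hochberg, is under 0.05.

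Before treatment, the members differed widely in level per kb of annotated exons, merged over all transcripts of a gene. Bases shared with other genes stayed in that length, so levels of overlapped genes can be too low. In control libraries, XRCC6 (the Ku70 subunit that caps broken ends) had a level of 57.7 CPM per kb in Ver and 54.1 in Vc, and PRKDC (the kinase that Ku recruits) had 52.1 and 51.4. UNG, the glycosylase that removes uracil from DNA, followed with 27.6 CPM per kb in Ver and 22.4 in Vc, and PARP1, the sensor of strand breaks, with 19.4 and 18.1. At the low end stood BRCA2, with 0.711 CPM per kb in Ver and 1.10 in Vc, and XRCC4, with 0.791 and 0.911. The 4 genes with the highest levels by this measure belonged to end joining, strand-break repair and base excision, and all 9 recombination genes lay below them. XRCC3 is 1 of those 9, and 76.7% of its exonic bases overlap another gene.

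The comparison of DHT with control asks how the androgen changes these genes in hormone-starved cells. DHT lowered most of them in both lines. In Ver 22 members fell and 4 rose, against 22.9% and 21.2% of all genes tested, and in Vc 26 fell and 3 rose, against 22.5% and 21.8%. The called set was 26 members in Ver and 29 in Vc, where the background over all genes, either direction, was 44.1% and 44.3%. Of the 39, 22 fell in both lines (56.4%, against 17.0% of all genes tested) and 3 rose in both (7.69%, against 17.4%); none was called in opposite directions. The median log2 change of the members was -0.51 in Ver and -0.59 in Vc, against -0.04 over all genes in each line. The fall was called and reached at least 2-fold in 14 members in Ver and in 15 in Vc, and LIG4 alone rose by as much in either line. The share of all genes tested that changed by 2-fold was not computed, so these counts have no background beside them. In bulk RNA, fewer cells of a kind (cells copying their DNA, for example) and less RNA per cell cannot be told apart.

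Other measures moved with DHT alongside these genes. Genes of the replication machinery fell too, 31 of 35 in Ver and 30 of 35 in Vc, with median log2 changes of -1.39 and -1.30, and so did 17 and 19 of 25 mitosis genes. The summed fibroblast markers were 3.03 to 3.14 CPM with DHT and 51.6 to 59.3 CPM in control in Ver, and 2.05 to 3.15 CPM with DHT and 14.8 to 16.5 CPM in control in Vc. LUM carried that sum, reaching 81.1 CPM in 1 library, COL1A1 was present in all 16 libraries at 0.935 to 2.54 CPM, and COL1A2, DCN and PDGFRA stood at 0 in 15, 10 and 11 of them. The part of these measures, and of the lower share of reads outside genes, in the members' response was not tested.

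**Figure D1:**
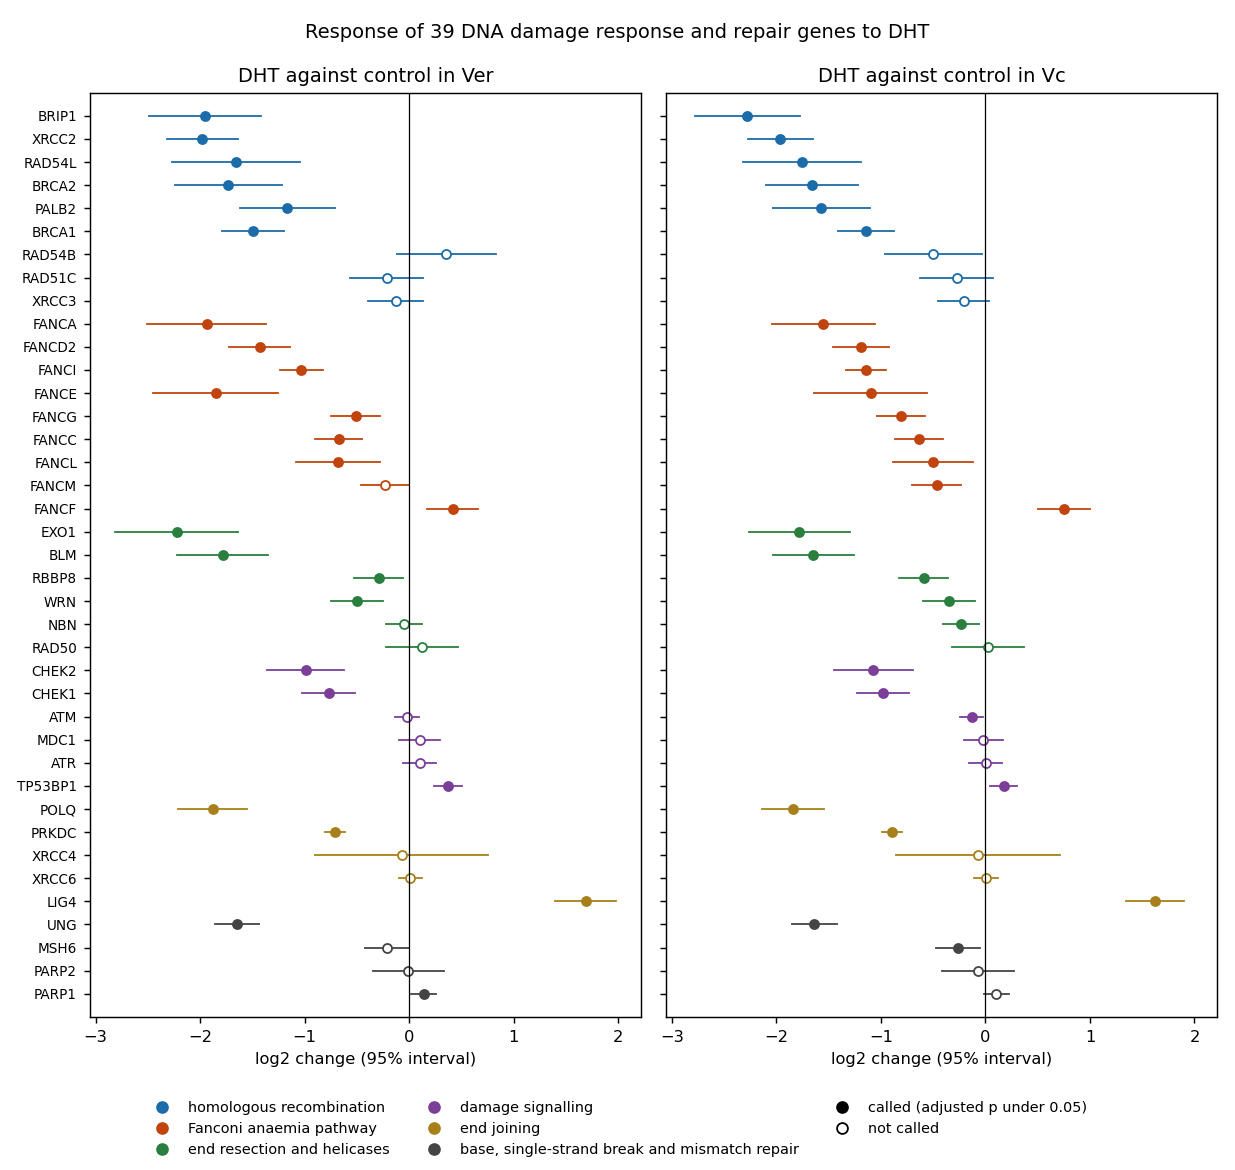
Log2 change with DHT against control for each of the 39 genes, Ver on the left and Vc on the right; points are edgeR estimates, bars their 95% intervals, filled points are called and colours mark the roles. Most recombination, Fanconi anaemia and resection genes lie left of 0 in both lines, LIG4 lies far to the right, and XRCC6, ATM, ATR, MDC1 and PARP2 sit near 0.

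Promoters are shown for the 4 genes with the lowest log2 change with DHT, averaged over the lines, and, for contrast, for LIG4, the gene with the largest rise. They are RefSeq promoters on GRCh38.p14, 250 bases before to 50 after the annotated start, written 5′ to 3′ on the gene's strand. Capitals mark an exact match to an E2F-type motif as spelled out below, found in EXO1 and XRCC2. The windows of BRIP1, POLQ and LIG4 held no exact match. Near matches were not searched for, so these windows are not shown to lack E2F-type sites. The promoters lie at chr17:61863479-61863778 (minus strand), chr1:241847954-241848253 (plus strand), chr7:152676092-152676391 (minus strand), chr3:121545939-121546238 (minus strand) and chr13:108218300-108218599 (minus strand).
BRIP1: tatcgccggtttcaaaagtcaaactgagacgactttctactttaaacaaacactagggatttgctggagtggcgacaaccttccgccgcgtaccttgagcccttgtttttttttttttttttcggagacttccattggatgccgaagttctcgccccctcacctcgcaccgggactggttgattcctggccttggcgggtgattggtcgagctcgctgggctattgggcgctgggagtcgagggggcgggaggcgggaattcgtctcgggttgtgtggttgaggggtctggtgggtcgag
EXO1: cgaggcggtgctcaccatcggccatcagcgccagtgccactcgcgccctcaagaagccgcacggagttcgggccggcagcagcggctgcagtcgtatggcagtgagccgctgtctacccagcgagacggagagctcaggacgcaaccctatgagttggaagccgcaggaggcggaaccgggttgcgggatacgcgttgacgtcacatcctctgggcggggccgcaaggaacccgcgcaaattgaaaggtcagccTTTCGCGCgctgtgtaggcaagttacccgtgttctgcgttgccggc
XRCC2: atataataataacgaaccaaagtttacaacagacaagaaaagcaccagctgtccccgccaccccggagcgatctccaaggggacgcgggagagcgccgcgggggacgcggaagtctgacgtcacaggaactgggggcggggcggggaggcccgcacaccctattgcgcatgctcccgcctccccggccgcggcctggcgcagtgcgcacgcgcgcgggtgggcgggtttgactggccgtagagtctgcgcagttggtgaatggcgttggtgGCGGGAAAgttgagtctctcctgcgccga
POLQ: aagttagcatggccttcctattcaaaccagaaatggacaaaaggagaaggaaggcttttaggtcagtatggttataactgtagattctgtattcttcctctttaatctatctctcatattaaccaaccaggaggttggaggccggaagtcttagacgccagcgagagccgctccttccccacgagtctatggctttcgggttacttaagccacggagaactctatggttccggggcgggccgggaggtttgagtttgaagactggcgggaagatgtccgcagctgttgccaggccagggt
LIG4: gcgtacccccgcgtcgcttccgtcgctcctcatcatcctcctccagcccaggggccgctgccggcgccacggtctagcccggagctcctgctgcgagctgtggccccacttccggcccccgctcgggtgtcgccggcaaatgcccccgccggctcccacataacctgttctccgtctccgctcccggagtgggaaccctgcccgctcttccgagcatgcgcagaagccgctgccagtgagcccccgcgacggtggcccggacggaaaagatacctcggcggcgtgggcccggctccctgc

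The promoter table held 34 of the 39 members, and the first window listed for each gene was searched on both strands. An E2F-type motif, taken as TTTCGCGC, TTTGGCGC, TTTCCCGC or TTTGCCGC (the kind of site bound by the E2F factors that govern S-phase genes), was present in 7 of the 34 windows (20.6%), against 3.33% of the 27305 promoters in the table. It was present in 5 of the 19 members that fell with DHT in both lines (XRCC2, FANCA, FANCC, FANCD2 and EXO1) and in 2 of the other 15 (XRCC6 and MSH6). The match in XRCC2 reads as GCGGGAAA, the opposite strand of TTTCCCGC. The CHR element TTTGAA, found in cell-cycle promoters, was in 14.7% of members and 15.4% of all promoters, and the NF-Y box CCAAT in 17 of the 34 windows and 35.7% of all promoters. By the same split, the NF-Y box was in 8 of the 19 and 9 of the other 15, the CHR element in 3 and 2, and AGAACA in 2 and 3. AGAACA, the hexamer of the androgen response element, was in 14.7% of members, LIG4 and EXO1 among them, and in 14.9% of all promoters. No motif in this search contains another, a match only describes the letters of the window, and near matches were not counted.

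Among the 9 recombination genes, 6 fell in both lines and 3 were called in neither, against 17.0% and 46.1% of all genes tested. BRIP1 (ENSG00000136492, chromosome 17, 61681266 to 61863521), the helicase partner of BRCA1, showed the largest mean fall. In Ver, BRIP1 had 2.68 and 1.94 CPM with DHT, against 8.44 and 9.48 CPM in control, a log2 change of -1.95 (SE 0.27, adjusted p = 4.88e-11), or 3.87-fold lower. In Vc, BRIP1 had 3.12 and 2.03 CPM with DHT, against 11.8 and 13.8 CPM in control, a log2 change of -2.28 (SE 0.26, adjusted p = 1.25e-15), or 4.85-fold lower. Both DHT libraries lay far below both controls in each line. XRCC2 (ENSG00000196584, chromosome 7, 152644779 to 152676165), which takes part in strand exchange during recombination, fell in both lines too. In Ver, XRCC2 had 5.17 and 7.11 CPM with DHT, against 24.2 and 24.1 CPM in control, a log2 change of -1.98 (SE 0.17, adjusted p = 1.44e-21). In Vc, XRCC2 had 7.47 and 9.35 CPM with DHT, against 32.4 and 32.8 CPM in control, a log2 change of -1.96 (SE 0.16, adjusted p = 5.36e-24). The controls of Vc stood above those of Ver, and the DHT libraries of both lines lay well below either. BRCA2 (ENSG00000139618, chromosome 13, 32315474 to 32400266), a tumour suppressor at the core of recombination, had 3.03 and 2.21 CPM with DHT, against 8.15 and 9.30 CPM in control in Ver and 3.86 and 4.67 CPM with DHT, against 12.5 and 14.4 CPM in control in Vc, log2 changes of -1.73 (SE 0.26) and -1.66 (SE 0.22). The other falls were those of BRCA1 (-1.49 in Ver and -1.14 in Vc), which directs breaks into recombination, PALB2 (-1.16 and -1.57), which bridges BRCA1 and BRCA2, and the DNA translocase RAD54L (-1.66 and -1.75). RAD51C and XRCC3, partners in a recombination complex, had values of -0.22 and -0.13 in Ver and -0.28 and -0.21 in Vc and were not called. RAD54B, a relative of RAD54L, had 0.36 in Ver (adjusted p = 0.242) and -0.50 in Vc (adjusted p = 0.0751). Of the exonic bases, 76.7% in XRCC3, 59.1% in RAD54B and 25.1% in RAD54L overlap KLC1, FSBP and LRRC41. KLC1 and LRRC41 lie on the opposite strand, which counting ignored, and FSBP on the strand of RAD54B. Union counting gives a read that touches 2 annotated genes to neither of them. Where the annotation used for counting matched, these values rest on the unshared exons.

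Most Fanconi anaemia genes fell with DHT. In Ver 7 of 9 fell and 1 rose, and in Vc 8 fell and 1 rose. Of all genes tested, 22.9% fell and 21.2% rose in Ver, and 22.5% and 21.8% in Vc. FANCA (ENSG00000187741, chromosome 16, 89737549 to 89816657), a subunit of the core complex that ubiquitinates FANCD2 and FANCI, had 2.59 and 2.03 CPM with DHT, against 6.30 and 11.4 CPM in control in Ver, a log2 change of -1.94 (SE 0.29, adjusted p = 9.85e-10). In Vc, FANCA had 3.45 and 4.27 CPM with DHT, against 9.62 and 12.9 CPM in control, a log2 change of -1.55 (SE 0.25, adjusted p = 2.6e-08); 23.6% of its exonic bases overlap ZNF276. The 2 Ver controls were far apart, yet both lay above both DHT libraries. FANCE (ENSG00000112039, chromosome 6, 35452356 to 35467103), which links that core to FANCD2, had 2.23 and 1.94 CPM with DHT, against 6.40 and 8.68 CPM in control in Ver, a log2 change of -1.85 (SE 0.30, adjusted p = 1.55e-08). In Vc, FANCE had 3.37 and 2.95 CPM with DHT, against 6.01 and 7.65 CPM in control, a log2 change of -1.10 (SE 0.28, adjusted p = 0.0003). The groups did not overlap in either line. The substrates themselves fell as a pair: FANCD2 by log2 changes of -1.43 in Ver and -1.19 in Vc, and FANCI by -1.03 and -1.14. FANCD2 has 1 annotated pseudogene copy. The core subunits FANCC (-0.67 and -0.64), FANCG (-0.51 and -0.81) and the ubiquitin ligase FANCL (-0.68 and -0.50) fell less. Of the exonic bases of FANCL, 19.7% overlap 2 other annotated genes. FANCM, the translocase that brings the core to DNA, fell in Vc (-0.47) and was not called in Ver (-0.23, adjusted p = 0.109). FANCF, a core adaptor with 11.3% of its exonic bases overlapping GAS2, rose in both lines. It had 31.9 and 29.7 CPM with DHT, against 24.3 and 21.8 CPM in control in Ver and 30.6 and 28.96 CPM with DHT, against 16.9 and 18.6 CPM in control in Vc, log2 changes of 0.42 (SE 0.12, adjusted p = 0.00295) in Ver and 0.75 (SE 0.13, adjusted p = 1.14e-07) in Vc. The FANCF call in Ver was lost without control replicate 2 (adjusted p = 0.0684), the FANCL call in Ver without DHT replicate 1 (0.103), and the FANCM call in Vc without control replicate 2 (0.0613). The FANCL call in Vc was lost by DESeq2 and without control replicate 1, control replicate 2 or DHT replicate 1 (adjusted p up to 0.242).

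Of the 6 resection and helicase genes, 4 fell in Ver and 5 in Vc, where 22.9% and 22.5% of all genes tested fell. EXO1 (ENSG00000174371, chromosome 1, 241847967 to 241895148), the exonuclease of long-range resection, had 1.43 and 2.03 CPM with DHT, against 8.24 and 7.96 CPM in control in Ver, a log2 change of -2.22 (SE 0.30, adjusted p = 6.43e-12), or 4.67-fold lower. In Vc, EXO1 had 3.45 and 3.35 CPM with DHT, against 12.2 and 11.3 CPM in control, a log2 change of -1.78 (SE 0.25, adjusted p = 5.6e-11), or 3.44-fold lower. BLM (ENSG00000197299, chromosome 15, 90717327 to 90816165), the helicase mutated in Bloom syndrome, had 3.75 and 3.97 CPM with DHT, against 13.6 and 13.1 CPM in control in Ver, a log2 change of -1.79 (SE 0.22, adjusted p = 5.82e-13). It had 5.91 and 5.18 CPM with DHT, against 16.8 and 18.2 CPM in control in Vc, a log2 change of -1.65 (SE 0.20, adjusted p = 2.43e-13). In both genes the libraries of the 2 treatments were well separated. RBBP8, which encodes CtIP, the factor that starts resection, fell with log2 changes of -0.29 in Ver and -0.59 in Vc, and WRN, the Werner syndrome helicase, with -0.50 and -0.35. RBBP8 has 1 annotated pseudogene copy. The break sensor NBN fell in Vc (log2 change -0.23) and had -0.051 in Ver (adjusted p = 0.682). RAD50, its partner, had 0.12 in Ver and 0.025 in Vc and was not called; 79.7% of its exonic bases overlap 2 other annotated genes. In Ver, the RBBP8 call was lost without control replicate 1 or DHT replicate 2 (adjusted p up to 0.342) and the WRN call without control replicate 2 or DHT replicate 1 (up to 0.0535). In Vc, the NBN call was lost without control replicate 1 or either DHT replicate (up to 0.235) and the WRN call without control replicate 1 or DHT replicate 1 (up to 0.207); DESeq2 called neither RBBP8 in Ver nor NBN or WRN in Vc.

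In damage signalling, the effector kinases fell in both lines, while the upstream kinases had log2 changes near 0. CHEK2 (ENSG00000183765, chromosome 22, 28687743 to 28742422), the kinase that ATM activates, had 7.94 and 7.11 CPM with DHT, against 12.2 and 17.6 CPM in control in Ver, a log2 change of -0.99 (SE 0.19, adjusted p = 2.62e-06). In Vc, CHEK2 had 7.64 and 5.996 CPM with DHT, against 15.9 and 12.999 CPM in control, a log2 change of -1.07 (SE 0.19, adjusted p = 4.06e-07). By name, 4 annotated pseudogenes are copies of CHEK2, so its counts are uncertain, though shared sequence was not measured. CHEK1 (ENSG00000149554, chromosome 11, 125625136 to 125676255), the kinase downstream of ATR, had 19.1 and 16.7 CPM with DHT, against 29.2 and 31.8 CPM in control in Ver, a log2 change of -0.77 (SE 0.13, adjusted p = 1.21e-07). In Vc, CHEK1 had 20.6 and 15.9 CPM with DHT, against 34.4 and 38.2 CPM in control, a log2 change of -0.98 (SE 0.13, adjusted p = 7.98e-12). Each kinase was lower in both DHT libraries than in both controls of its line. ATM, the kinase called to breaks, had a log2 change of -0.019 in Ver (95% interval -0.13 to 0.093) and -0.13 in Vc (-0.24 to -0.023). The ATM call in Vc was lost by DESeq2, with its size factors, with no filter and without any 1 of the 4 libraries (adjusted p up to 0.195). ATR, the kinase of stalled forks, had 0.10 in Ver (-0.059 to 0.26) and 0.0027 in Vc (-0.15 to 0.16), and 16.4% of its exonic bases overlap another annotated gene. MDC1, the scaffold on damaged chromatin, had 0.10 (-0.092 to 0.29) and -0.019 (-0.21 to 0.17). TP53BP1, which shields ends from resection, rose slightly in both lines, by 0.38 (SE 0.069, adjusted p = 9.56e-07) in Ver and 0.18 (SE 0.065, adjusted p = 0.0201) in Vc; 28.7% of its exonic bases overlap TUBGCP4. Its call in Vc was lost without control replicate 2 or either DHT replicate, or with no filter (adjusted p up to 0.202).

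Of the 5 end joining genes, 2 fell and 1 rose in each line. Over all genes tested, 22.9% fell and 21.2% rose in Ver, and 22.5% and 21.8% in Vc. LIG4 (ENSG00000174405, chromosome 13, 108207439 to 108218368), the ligase that seals joined ends, rose in both lines. In Ver, LIG4 had 33.4 and 35.8 CPM with DHT, against 12.6 and 8.94 CPM in control, a log2 change of 1.69 (SE 0.15, adjusted p = 5.12e-21), or 3.22-fold higher. In Vc, LIG4 had 39.5 and 35.7 CPM with DHT, against 13.5 and 10.96 CPM in control, a log2 change of 1.62 (SE 0.14, adjusted p = 4e-21), or 3.07-fold higher. Each DHT library lay above every control library. POLQ (ENSG00000051341, chromosome 3, 121431427 to 121546641), the polymerase of the alternative, microhomology-driven route, fell. In Ver, POLQ had 6.33 and 6.74 CPM with DHT, against 22.9 and 25.2 CPM in control, a log2 change of -1.88 (SE 0.17, adjusted p = 2.55e-21), or 3.68-fold lower. In Vc, POLQ had 10.2 and 8.13 CPM with DHT, against 31.95 and 34.4 CPM in control, a log2 change of -1.85 (SE 0.15, adjusted p = 1.54e-23), or 3.59-fold lower. Again no DHT library reached a control. PRKDC, the catalytic subunit of DNA-PK, had 456 and 525 CPM with DHT, against 836 and 769.7 CPM in control in Ver and 431 and 422 CPM with DHT, against 806 and 779 CPM in control in Vc, and fell with log2 changes of -0.71 (SE 0.050, adjusted p = 3.3e-27) in Ver and -0.89 (SE 0.050, adjusted p = 8.71e-36) in Vc. XRCC6, which encodes its Ku70 partner, had 189.8 and 193 CPM with DHT, against 188 and 192 CPM in control in Ver and 185 and 172 CPM with DHT, against 183 and 173 CPM in control in Vc. Its log2 change had a 95% interval of -0.10 to 0.13 in Ver and -0.11 to 0.12 in Vc, the groups overlapped, and 5 annotated pseudogenes are copies of it by name. XRCC4, the partner of LIG4, stood at 1.25 to 2.77 CPM in all 16 libraries, and its interval of -0.90 to 0.76 in Ver and -0.86 to 0.72 in Vc cannot show a smaller response at this depth.

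Among the genes of base, strand-break and mismatch repair, UNG (ENSG00000076248, chromosome 12, 109097574 to 109110992) fell. In Ver, UNG had 23.7 and 21.5 CPM with DHT, against 71.8 and 70.04 CPM in control, a log2 change of -1.65 (SE 0.11, adjusted p = 3.98e-29), or 3.13-fold lower. In Vc, UNG had 21.3 and 15.2 CPM with DHT, against 55.3 and 59.6 CPM in control, a log2 change of -1.64 (SE 0.11, adjusted p = 9.39e-28), or 3.11-fold lower. In each line the DHT libraries lay far below the controls. By name, 2 annotated pseudogenes are copies of UNG. MSH6 (ENSG00000116062, chromosome 2, 47695530 to 47810101), which recognises mispaired bases, had 31.8 and 31.4 CPM with DHT, against 35.98 and 37.2 CPM in control in Ver, a log2 change of -0.21 (SE 0.11, adjusted p = 0.107) that was not called. In Vc it had 29.3 and 32.9 CPM with DHT, against 36.6 and 37.8 CPM in control, a log2 change of -0.26 (SE 0.11, adjusted p = 0.0392); 16.2% of its exonic bases overlap FBXO11. The MSH6 call in Vc was lost by DESeq2 and without control replicate 1, control replicate 2 or DHT replicate 1 (adjusted p up to 0.348). PARP1 had log2 changes of 0.14 (SE 0.061, adjusted p = 0.0493) in Ver and 0.10 (SE 0.061, adjusted p = 0.164) in Vc. Its call in Ver was lost without any 1 of the 4 libraries (adjusted p up to 0.148), and it has 2 annotated pseudogene copies. PARP2, a relative of PARP1, had -0.0056 and -0.073 and was not called.

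**Figure D2:**
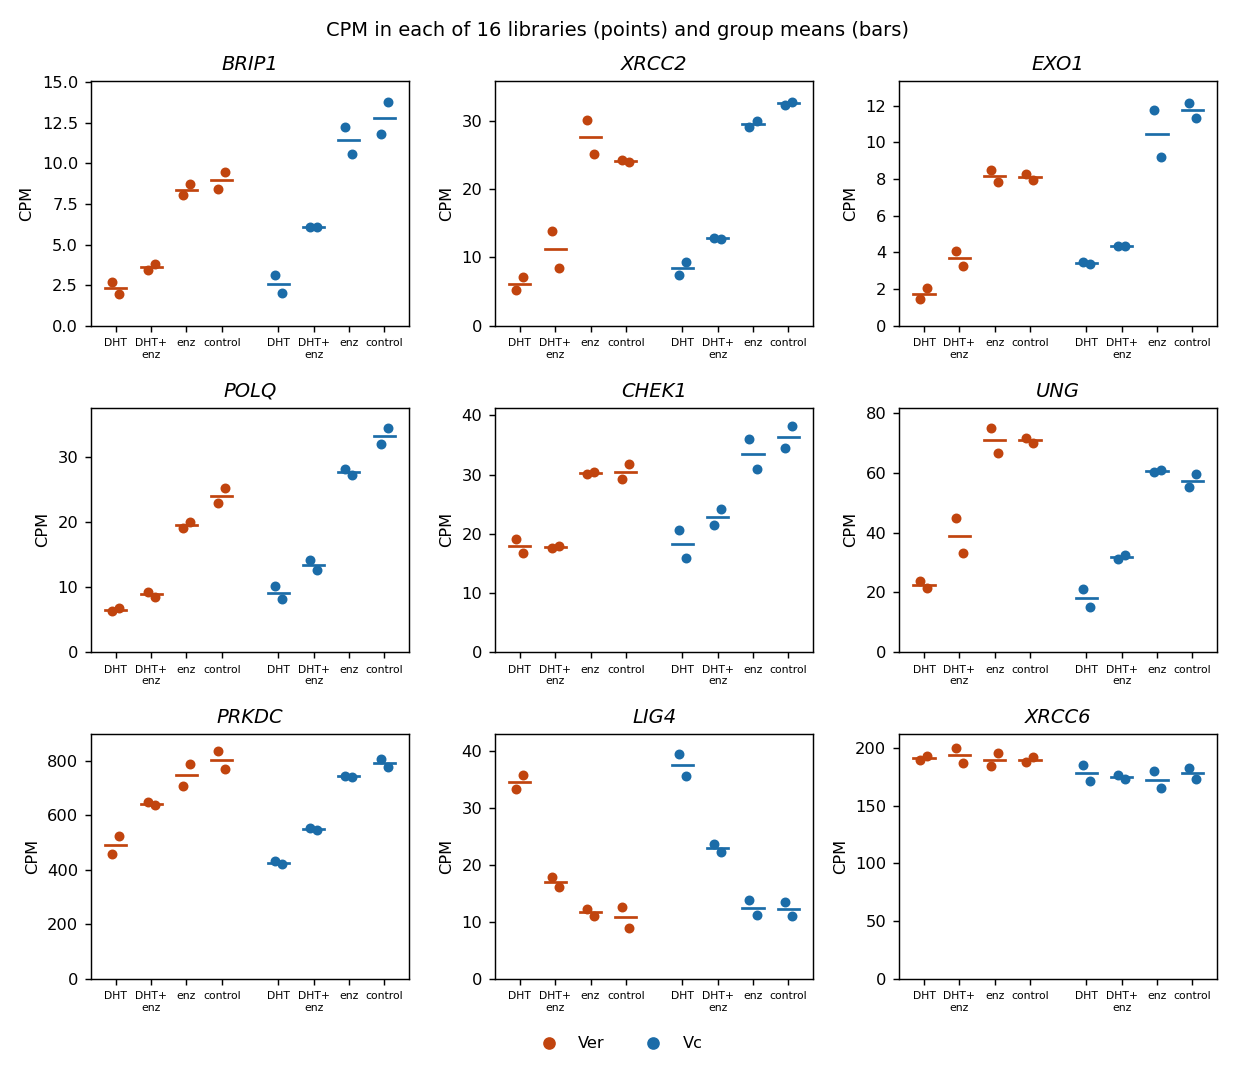
CPM of 9 genes in every library; points are the 2 libraries of a group, bars the group means, with Ver in orange and Vc in blue and the treatments in the order DHT, DHT plus enzalutamide, enzalutamide alone and control. BRIP1, XRCC2, EXO1, POLQ, CHEK1, UNG and PRKDC are lowest with DHT or with both compounds, LIG4 is highest with DHT, and XRCC6 is level.

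Whether Ver and Vc differ in their response to DHT was tested as the difference of the 2 changes, Ver minus Vc. No member was called, against 2.32% of all genes tested (0.891% higher and 1.43% lower). An unadjusted p under 0.05 was reached by 3 members and by 2751 of the 22553 genes tested. DESeq2 called no member. The differences had a median of 0.07 and ran from -0.75 for FANCE to 0.85 for RAD54B on the log2 scale. The 95% intervals still allow sizeable differences for the low genes, -1.55 to 0.050 for FANCE and 0.19 to 1.51 for RAD54B, although neither was called (adjusted p = 0.456 and 0.212), and only small ones for abundant genes such as XRCC6 (-0.15 to 0.17) and ATM (-0.044 to 0.27). LIG4, POLQ and UNG had intervals of -0.33 to 0.47, -0.48 to 0.41 and -0.31 to 0.29. PRKDC came nearest to a call with 0.18 (SE 0.071, adjusted p = 0.204), a smaller fall in Ver than in Vc, and was called without Ver DHT replicate 1 (adjusted p = 0.0196).

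Enzalutamide alone asks what the antiandrogen does in cells starved of androgen. No member was called in Ver, where 1.13% of all genes tested were, or in Vc, where 0.537% were. An unadjusted p under 0.05 was reached by 5 members in Ver and 6 in Vc. Over the 22553 genes tested, it was reached by 2097 in Ver and 1894 in Vc. DESeq2 called no member in either line. The members' log2 changes ran from -0.40 to 0.43 in Ver and from -0.50 to 0.16 in Vc. Their medians were -0.0029 and -0.14, against -0.0055 and 0.0040 over all genes. In Ver 21 members were below 0 and 18 above, and in Vc 32 were below and 7 above. In Ver, ATR had the smallest adjusted p, with 55.6 and 54.01 CPM with enzalutamide, against 67.1 and 61.1 CPM in control (log2 change -0.23, SE 0.084, adjusted p = 0.259). In Vc it was FANCD2, with 28.4 and 28.4 CPM with enzalutamide, against 36.3 and 33.5 CPM in control (log2 change -0.30, SE 0.13, adjusted p = 0.428). In both genes the enzalutamide libraries lay below the controls, without a call. BRCA2 had a positive value in Ver (log2 change 0.43, SE 0.21, adjusted p = 0.487) and a negative one in Vc (log2 change -0.13, SE 0.19, adjusted p = 0.938), neither called. The difference between the lines was called for no member, against 0.0222% of all genes tested, and DESeq2 called none. Its unadjusted p was under 0.05 for 3 members and for 1374 of the 22553 genes tested. For LIG4, UNG and POLQ the intervals of the change were -0.22 to 0.44, -0.19 to 0.18 and -0.57 to -0.020 in Ver and -0.28 to 0.33, -0.11 to 0.26 and -0.51 to -0.010 in Vc; the POLQ intervals exclude 0, but its adjusted p were 0.488 and 0.57.

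Adding enzalutamide to DHT asks how far the drug undoes the androgen response. Against DHT alone, 13 members rose and 3 fell in Ver, and 8 rose and 3 fell in Vc. The median log2 change over all 39 was 0.16 in Ver and 0.19 in Vc. Over all genes tested, 13.7% rose and 13.2% fell in Ver, and 11.5% and 11% in Vc, 26.9% and 22.4% in either direction. Of the 22 members that DHT lowered in both lines, 13 were higher with both compounds than with DHT alone in Ver and 7 in Vc, and none was lower. Their median log2 change from enzalutamide on top of DHT was 0.48 in Ver and 0.33 in Vc, a comparison that reuses the DHT libraries by which the 22 were chosen. Against control, with which the DHT comparison shares its libraries, both compounds together still left 18 of the 22 lower in Ver and 20 in Vc, with median log2 changes of -0.76 and -0.85. For DHT alone the medians of the same 22, which were chosen for that fall, were -1.46 and -1.16. Among the group means of DHT, both compounds and control, 22 of all 39 members in Ver and 28 in Vc increased in that order. The reverse order was held by 3 members in each line. The group with enzalutamide alone was left out of this order, and the share of all genes with either order was not computed. Over all 39 members, both compounds against control gave 3 higher and 19 lower in Ver and 3 higher and 21 lower in Vc, with medians of -0.34 and -0.45, where 22.7% (12.4% higher and 10.3% lower) and 28.5% (15.3% and 13.2%) of all genes tested were called. Other measures moved with the addition of enzalutamide to DHT: 20 of 35 replication genes rose in Ver and 16 in Vc, and 10 of 25 mitosis genes in Ver and 4 in Vc. The summed fibroblast markers were 18.7 to 26.2 CPM with both compounds and 3.03 to 3.14 CPM with DHT in Ver, and 4.84 to 6.18 CPM with both compounds and 2.05 to 3.15 CPM with DHT in Vc; the part of these measures in the members' values was not tested.

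Among the 9 recombination genes, 4 rose and 1 fell in Ver when enzalutamide was added to DHT, and 3 rose in Vc. Of all genes tested, 13.7% rose and 13.2% fell in Ver, and 11.5% rose and 11% fell in Vc. XRCC2 had 13.9 and 8.53 CPM with both compounds and 30.1 and 25.1 CPM with enzalutamide alone in Ver, and 12.8 and 12.8 CPM with both compounds and 29.1 and 30.1 CPM with enzalutamide alone in Vc. With both compounds XRCC2 was higher than with DHT alone by 0.87 (SE 0.19, adjusted p = 6.55e-05) in Ver and 0.62 (SE 0.17, adjusted p = 0.00293) in Vc. Its Ver libraries with both compounds differed from each other more than those of Vc, and all 4 stayed below their controls. BRIP1 had 3.45 and 3.79 CPM with both compounds and 8.05 and 8.71 CPM with enzalutamide alone in Ver, and 6.10 and 6.08 CPM with both compounds and 12.3 and 10.6 CPM with enzalutamide alone in Vc. It rose in Vc by 1.21 (SE 0.27, adjusted p = 0.000106) and had 0.65 (SE 0.31, adjusted p = 0.107) in Ver, without a call. BRCA2 had 6.70 and 3.68 CPM with both compounds and 11.6 and 11.98 CPM with enzalutamide alone in Ver, and 6.66 and 5.55 CPM with both compounds and 12.5 and 12.1 CPM with enzalutamide alone in Vc. It rose in Ver by 0.98 (SE 0.28, adjusted p = 0.00313) and had 0.53 (SE 0.24, adjusted p = 0.108) in Vc. PALB2 rose in both lines, by 0.82 in Ver and 0.93 in Vc, and BRCA1 passed the test in Ver (0.46, against 0.14 in Vc). RAD54L had 0.50 and 0.050 and was not called, nor were RAD51C and XRCC3. RAD54B fell in Ver, with -0.67 (SE 0.26, adjusted p = 0.0377).

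In the Fanconi anaemia group, 5 of 9 rose in Ver and 1 in Vc, where 13.7% and 11.5% of all genes tested rose. FANCA had 6.39 and 3.58 CPM with both compounds and 9.32 and 9.35 CPM with enzalutamide alone in Ver, and 5.38 and 3.61 CPM with both compounds and 10.7 and 8.38 CPM with enzalutamide alone in Vc. It was higher with both compounds than with DHT by 1.10 (SE 0.31, adjusted p = 0.00252) in Ver and had 0.24 (SE 0.28, adjusted p = 0.622) in Vc. FANCE had 5.23 and 3.47 CPM with both compounds and 8.40 and 6.81 CPM with enzalutamide alone in Ver, and 3.77 and 4.76 CPM with both compounds and 6.14 and 6.53 CPM with enzalutamide alone in Vc. It rose in Ver by 1.06 (SE 0.32, adjusted p = 0.0058) and had 0.42 (SE 0.29, adjusted p = 0.341) in Vc. FANCC (0.42), FANCD2 (0.71) and FANCI (0.35) also rose in Ver, and FANCI was the only one called in Vc (0.29). FANCF, which DHT had raised, had -0.066 in Ver and -0.10 in Vc and stayed above control in both lines (0.35 and 0.65); the call in Ver was lost by DESeq2 and without control replicate 2 or either replicate with both compounds (adjusted p up to 0.245).

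EXO1 had 4.08 and 3.26 CPM with both compounds and 8.51 and 7.81 CPM with enzalutamide alone in Ver, and 4.33 and 4.32 CPM with both compounds and 11.8 and 9.18 CPM with enzalutamide alone in Vc. It rose over DHT alone in Ver by 1.09 (SE 0.33, adjusted p = 0.00531) and had 0.34 (SE 0.27, adjusted p = 0.423) in Vc. BLM had 4.61 and 7.58 CPM with both compounds and 12.7 and 11.5 CPM with enzalutamide alone in Ver, and 8.67 and 6.43 CPM with both compounds and 11.9 and 15.4 CPM with enzalutamide alone in Vc. It rose in Ver by 0.66 (SE 0.24, adjusted p = 0.0312) and had 0.44 (SE 0.22, adjusted p = 0.136) in Vc. In both lines the libraries of EXO1 and BLM with both compounds lay below control. CHEK1 had 17.6 and 17.9 CPM with both compounds and 30.02 and 30.4 CPM with enzalutamide alone in Ver, and 21.5 and 24.2 CPM with both compounds and 36.1 and 30.97 CPM with enzalutamide alone in Vc. CHEK2 had 9.95 and 8.84 CPM with both compounds and 16.1 and 11.1 CPM with enzalutamide alone in Ver, and 7.87 and 10.2 CPM with both compounds and 15.01 and 15.2 CPM with enzalutamide alone in Vc. Neither kinase was called on top of DHT: CHEK1 had -0.013 and 0.32, and CHEK2 had 0.32 and 0.39. In Ver the libraries of CHEK1 with both compounds lay within those with DHT alone. ATR rose in Vc by 0.28 (SE 0.079, adjusted p = 0.00425) and had 0.025 in Ver, while MDC1 fell in Vc with -0.39 (SE 0.10, adjusted p = 0.000886) and had 0.015 in Ver. TP53BP1 fell in Ver with -0.28 (SE 0.069, adjusted p = 0.000581) and had -0.094 in Vc.

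LIG4 had 17.9 and 16.2 CPM with both compounds and 12.3 and 10.98 CPM with enzalutamide alone in Ver, and 23.8 and 22.4 CPM with both compounds and 13.8 and 11.1 CPM with enzalutamide alone in Vc. It fell against DHT alone with log2 changes of -1.02 (SE 0.14, adjusted p = 3.62e-10) in Ver and -0.71 (SE 0.13, adjusted p = 4.3e-06) in Vc, and with both compounds was still above control (0.67 and 0.91), in Ver not without control replicate 2 (adjusted p = 0.104). POLQ had 9.21 and 8.53 CPM with both compounds and 19.1 and 20.1 CPM with enzalutamide alone in Ver, and 14.2 and 12.6 CPM with both compounds and 28.1 and 27.2 CPM with enzalutamide alone in Vc. It rose over DHT alone in Vc by 0.54 (SE 0.16, adjusted p = 0.00671) and had 0.44 (SE 0.19, adjusted p = 0.0676) in Ver. UNG had 45.02 and 33.1 CPM with both compounds and 74.999 and 66.8 CPM with enzalutamide alone in Ver, and 31.1 and 32.5 CPM with both compounds and 60.2 and 61.1 CPM with enzalutamide alone in Vc. It rose in both lines, by 0.79 (SE 0.11, adjusted p = 3.55e-09) in Ver and 0.78 (SE 0.12, adjusted p = 1.42e-08) in Vc. PRKDC rose by 0.39 (SE 0.051, adjusted p = 5.91e-11) in Ver and 0.37 (SE 0.051, adjusted p = 8.34e-10) in Vc. These genes took middle levels with both compounds, LIG4 between a high DHT and a low control level and the others the reverse. MSH6 had 34.4 and 34.002 CPM with both compounds and 34.7 and 38.2 CPM with enzalutamide alone in Ver, and 31.2 and 33.4 CPM with both compounds and 37.2 and 33.9 CPM with enzalutamide alone in Vc. Its change on top of DHT was 0.11 in Ver and 0.057 in Vc, with no call, and PARP1 fell in Vc (-0.18, adjusted p = 0.0255).

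In Ver, the calls on top of DHT that held under every alternative and without any single library were those of PALB2, FANCD2, PRKDC and UNG (higher) and TP53BP1 and LIG4 (lower), and in Vc those of BRIP1, PRKDC and UNG (higher) and MDC1 and LIG4 (lower). In Ver, BRCA2, FANCA, FANCC and FANCE lost their calls without DHT replicate 2 or replicate 1 of the group with both compounds, EXO1 and BRCA1 without DHT replicate 1 or that replicate, XRCC2 without that replicate, and BLM, FANCI and RAD54B without 2 or 3 of the 4 libraries. In Vc, the calls lost without DHT replicate 1 were those of ATR, FANCI, PARP1 and XRCC2, and those lost without DHT replicate 2 were PALB2, PARP1 and POLQ. Without replicate 1 of the group with both compounds ATR, FANCI, PARP1 and POLQ were lost, and without its replicate 2 FANCI and PARP1. DESeq2 did not call FANCI in Vc or BLM, BRCA1 and RAD54B in Ver. With no filter PARP1 in Vc and RAD54B in Ver were lost, and with the compared groups alone BLM in Ver. On top of DHT, the 16 calls in Ver became 8 without replicate 1 of the group with both compounds and 10 without DHT replicate 2, and the 11 calls in Vc became 7 without replicate 1 of the group with both compounds. Against control, the 22 calls for both compounds in Ver became 13 without control replicate 2. The difference in this response between the lines, Ver minus Vc, was called for no member. Of all genes tested, 1.29% were called (0.638% higher and 0.652% lower). Its unadjusted p was under 0.05 for 5 members and for 2632 of the 22553 genes tested. DESeq2 called no member. MDC1 was nearest with 0.41 (SE 0.14, adjusted p = 0.139), and the widest values were 0.87 for FANCA (95% interval 0.053 to 1.68) and -0.63 for RAD54B (-1.32 to 0.066). The larger number of members called in Ver than in Vc is not shown to be a difference between the lines.

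**Figure D3:**
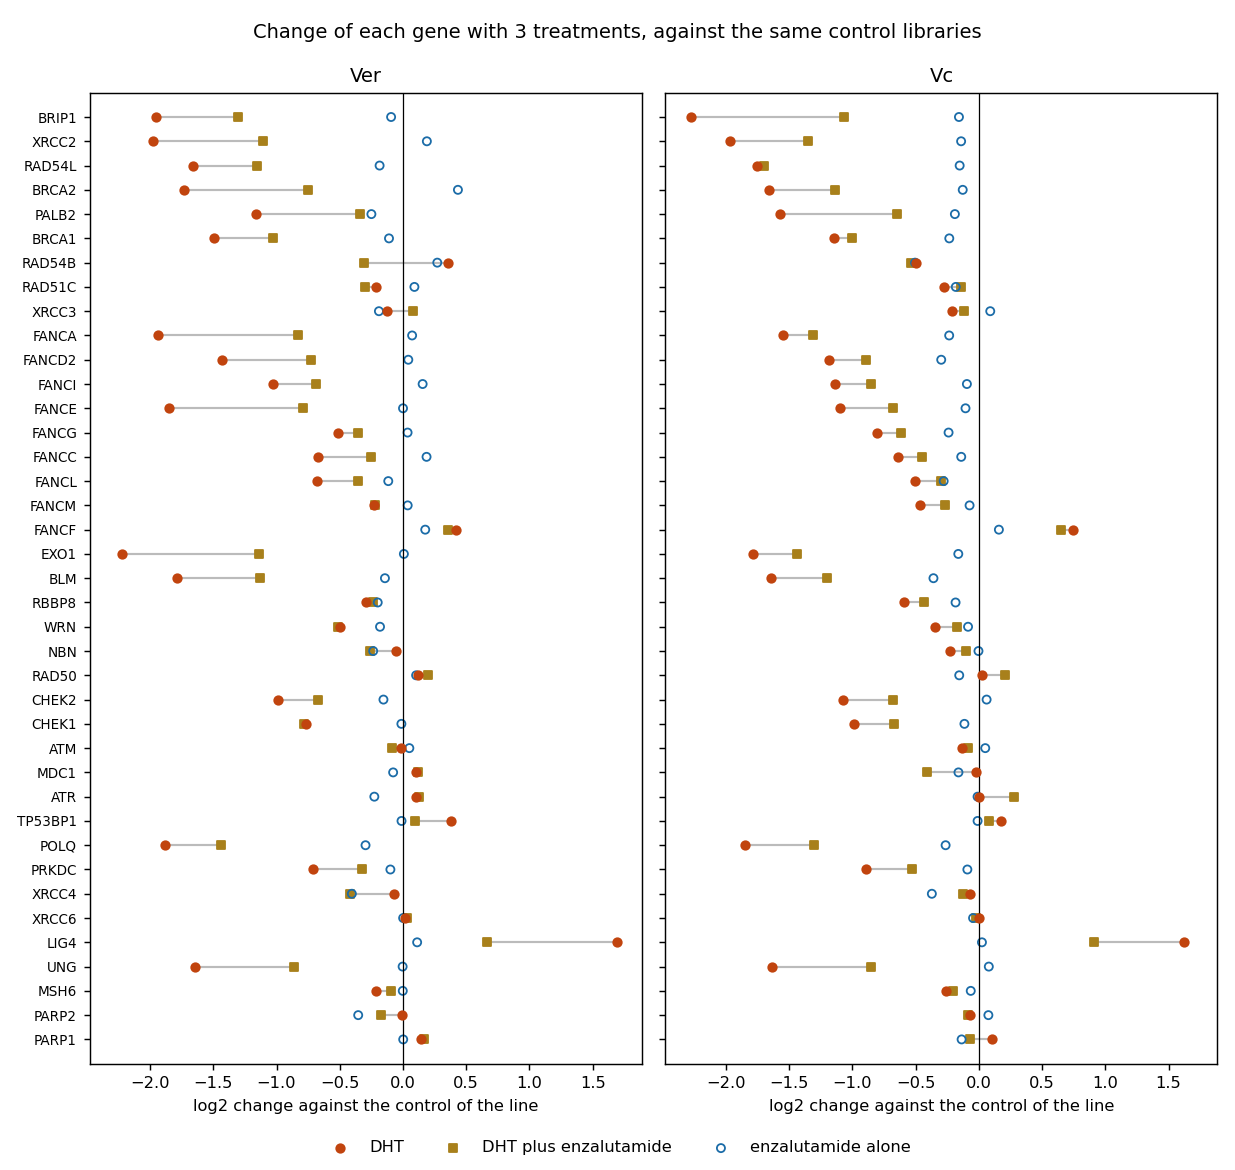
Log2 change of each gene against the control of its line with DHT (filled circles), DHT plus enzalutamide (squares) and enzalutamide alone (open circles), Ver on the left and Vc on the right; a grey line joins the values with DHT and with both compounds, and the 3 treatments share their control libraries. For most genes that DHT lowered the square lies between the filled circle and 0. Medians over all 39 genes are -0.34 with both compounds and -0.51 with DHT in Ver and -0.45 and -0.59 in Vc. In Ver 21 open circles lie left of 0 and 18 right of it, and in Vc 32 lie left and 7 right.

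Ver against Vc asks how the lines differ after 4 months with enzalutamide and with ethanol. Without treatment, 12 members differed, 3 higher and 9 lower in Ver, against 18.9% of all genes tested (9.13% higher and 9.73% lower). The share called was 30.8%, and the median log2 difference of the members was -0.19, against 0.012 over all genes. BRCA2 showed the largest difference, with 8.15 and 9.30 CPM in Ver controls, against 12.5 and 14.4 CPM in Vc controls (log2 difference -0.62, SE 0.20, adjusted p = 0.0147). POLQ had 22.9 and 25.2 CPM in Ver controls, against 31.95 and 34.4 CPM in Vc controls (log2 difference -0.46, SE 0.13, adjusted p = 0.00513). For both genes the Ver libraries lay below the Vc libraries. The other genes that were lower in Ver were TP53BP1 (-0.46), XRCC2 (-0.43), FANCI (-0.41), FANCD2 (-0.40), XRCC3 (-0.36), BRCA1 (-0.34) and ATM (-0.29). Higher in Ver were FANCF (0.38), FANCC (0.32) and UNG (0.30). Mitosis genes moved with the line as well, 14 of 25 lower in Ver with a median of -0.45, and their part in the members' difference was not tested. The calls of FANCI, ATM and TP53BP1 held under every alternative, while BRCA2 was lost by DESeq2 and POLQ and BRCA2 without control replicate 2 of Vc or control replicate 1 of Ver (adjusted p up to 0.173). DESeq2 called 4 members in place of 12, and leaving out Vc control replicate 1, Vc control replicate 2 or Ver control replicate 1 left 6, 6 and 5.

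The same comparison under the other treatments gave 9 members with DHT (2 higher and 7 lower in Ver), 8 with enzalutamide (3 and 5) and 12 with both compounds (5 and 7), against 17.3% (7.9% higher and 9.37% lower), 16.6% (7.88% and 8.69%) and 20.3% (9.28% and 11%) of all genes tested. ATM, TP53BP1 and POLQ were lower in Ver under every treatment. TP53BP1 had log2 differences of -0.26 with DHT, -0.45 with both compounds, -0.46 with enzalutamide and -0.46 in control, and in each of these the Ver libraries lay below the Vc libraries. ATM had -0.18, -0.29, -0.29 and -0.29 in the same order, and POLQ had -0.50, -0.60, -0.50 and -0.46. With DHT, EXO1 had 1.43 and 2.03 CPM in Ver, against 3.45 and 3.35 CPM in Vc (log2 difference -0.98, SE 0.33, adjusted p = 0.0197), the largest difference there. BRCA1 (-0.69), FANCD2 (-0.64) and FANCI (-0.30) were also lower with DHT, while PRKDC (0.20) and NBN (0.27) were higher. With enzalutamide, FANCC (0.65), FANCF (0.39) and PARP1 (0.24) were higher in Ver, and XRCC3 (-0.65) and ATR (-0.30) lower. With both compounds, FANCC (0.52), PARP1 (0.34), UNG (0.30), MDC1 (0.28) and PRKDC (0.22) were higher in Ver, and BRIP1 (-0.75), LIG4 (-0.44), CHEK1 (-0.36) and ATR (-0.23) lower. The count with DHT fell to 3 without Ver DHT replicate 1 and to 4 and 5 without Vc DHT replicates 1 and 2, and that with enzalutamide to 5 without replicate 1 of either line. With both compounds it was 7 without Vc replicate 1 or Ver replicate 2, and 6 by DESeq2. With DHT, each of the 9 calls was lost in at least 1 alternative (EXO1 without Ver DHT replicate 1 or either Vc DHT replicate, adjusted p up to 0.243); with enzalutamide the calls of ATM, TP53BP1, FANCC and XRCC3 held in all, and with both compounds those of ATM, TP53BP1, PARP1 and PRKDC.

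**Figure D4:**
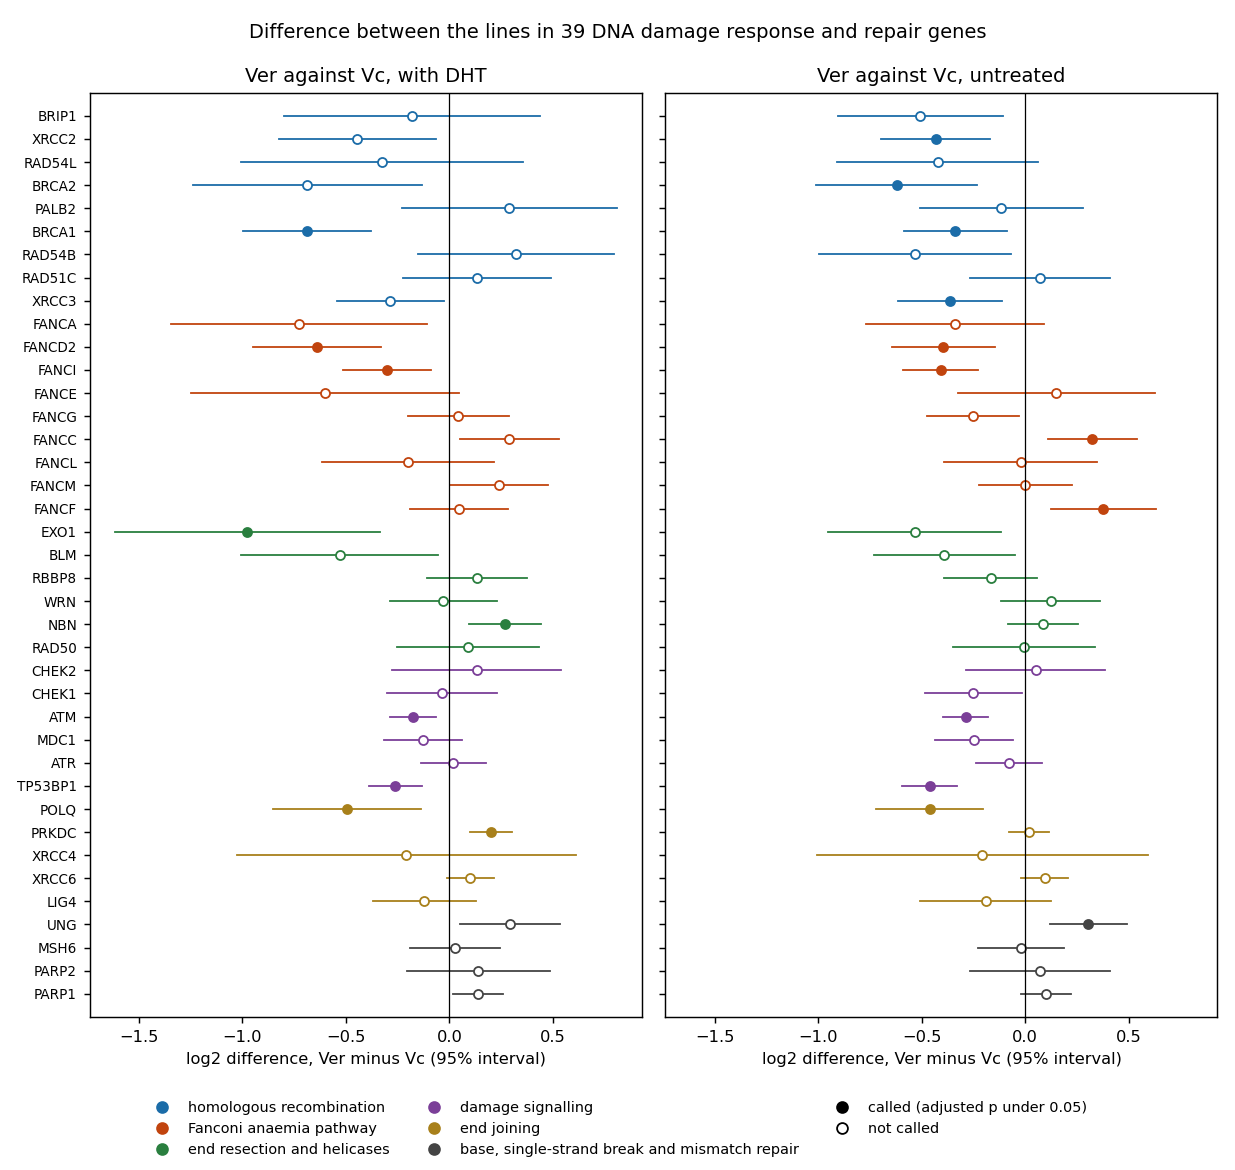
Log2 difference between the lines, Ver minus Vc, for each of the 39 genes, with DHT on the left and untreated on the right; points are edgeR estimates, bars their 95% intervals and filled points are called. Untreated, 9 called genes lie left of 0 and 3 right of it; with DHT, 7 lie left, EXO1 farthest at -0.98, and 2 right.

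Other genes of repair and damage signalling, p53 targets, and replication and mitosis genes were counted in 10 lists that hold no member. With DHT the background over all genes tested was 22.9% lower and 21.2% higher in Ver and 22.5% and 21.8% in Vc. Of 16 other recombination genes, 11 fell and 2 rose with DHT in Ver and 12 fell and 2 rose in Vc, with median log2 changes of -0.41 and -0.9997. MRE11, the nuclease that works with RAD50 and NBN, averaged 27.9 ± 4.46 CPM with DHT and 54.4 ± 0.604 CPM in control in Ver, and 27.3 ± 1.92 CPM with DHT and 69.9 ± 0.794 CPM in control in Vc (SD, n = 2). Its log2 change was -0.96 in Ver and -1.36 in Vc, while that of MUS81, a nuclease that cuts joined DNA, was 0.69 in Ver and 0.82 in Vc. Of 20 other checkpoint genes, 11 fell and 2 rose in Ver and 13 fell and 1 rose in Vc, with medians of -0.35 and -0.57; WEE1, the kinase that holds back mitosis, changed by -0.97 in Ver and -1.18 in Vc, and RIF1, which acts with TP53BP1 at breaks, by -0.31 in Ver and -0.58 in Vc. The other Fanconi anaemia genes were mixed: 4 of 14 fell in each line while 3 rose in Ver and 2 in Vc, with FANCB at -0.67 in Ver and -1.60 in Vc and CENPX, which helps FANCM hold DNA, at 1.14 in Ver and 0.94 in Vc. Of the other end joining genes, 2 of 11 rose in each line, and 2 fell in Ver and 1 in Vc; APLF, a factor that holds the joining complex, fell in Vc with -0.89 (adjusted p = 0.0348) and had -0.90 in Ver (adjusted p = 0.0652).

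Base excision was divided as well, with 5 of 14 other genes lower and 3 higher in Ver and 6 lower and 3 higher in Vc. LIG1, the ligase of replication and base excision, changed by -2.14 in Ver and -1.76 in Vc, and APEX1, which cuts at sites that UNG leaves, by -0.86 in Ver and -0.98 in Vc. Of 6 other mismatch repair genes, 2 fell and 1 rose in each line, with medians of 0.02 in Ver and -0.20 in Vc. Of the genes of nucleotide excision, which removes bulky lesions, 2 of 15 were lower and 2 higher in Ver and 3 lower and 1 higher in Vc. There CETN2, which steadies the damage sensor XPC, rose by 1.32 in Ver and 1.40 in Vc, and the helicase ERCC2 fell with -0.61 in Ver and -0.64 in Vc. Targets of p53, the damage-activated transcription factor, moved both ways, 5 of 19 lower and 8 higher in Ver and 7 lower and 4 higher in Vc. CDKN1A, the cyclin kinase inhibitor p21, averaged 217 ± 7.66 CPM with DHT and 39.7 ± 1.61 CPM in control in Ver, and 189 ± 2.22 CPM with DHT and 31.7 ± 2.20 CPM in control in Vc (SD, n = 2). TP53INP1, another p53 target, changed by -0.92 in Ver and -1.17 in Vc, the opposite direction to CDKN1A (2.45 in Ver and 2.58 in Vc). The DNA replication list had the lowest medians, with MCM2 at -2.95 in Ver and -2.31 in Vc and MCM4 at -2.06 in Ver and -2.01 in Vc, and among mitosis genes the kinase TTK changed by -1.39 in Ver and -1.68 in Vc and TOP2A by -0.63 in Ver and -0.76 in Vc. On top of DHT, enzalutamide raised 20 of 35 replication genes in Ver and 16 in Vc, and lowered 2 in each line. XPC and DDB2 stand in both the nucleotide excision and the p53 list.

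**Figure D5:**
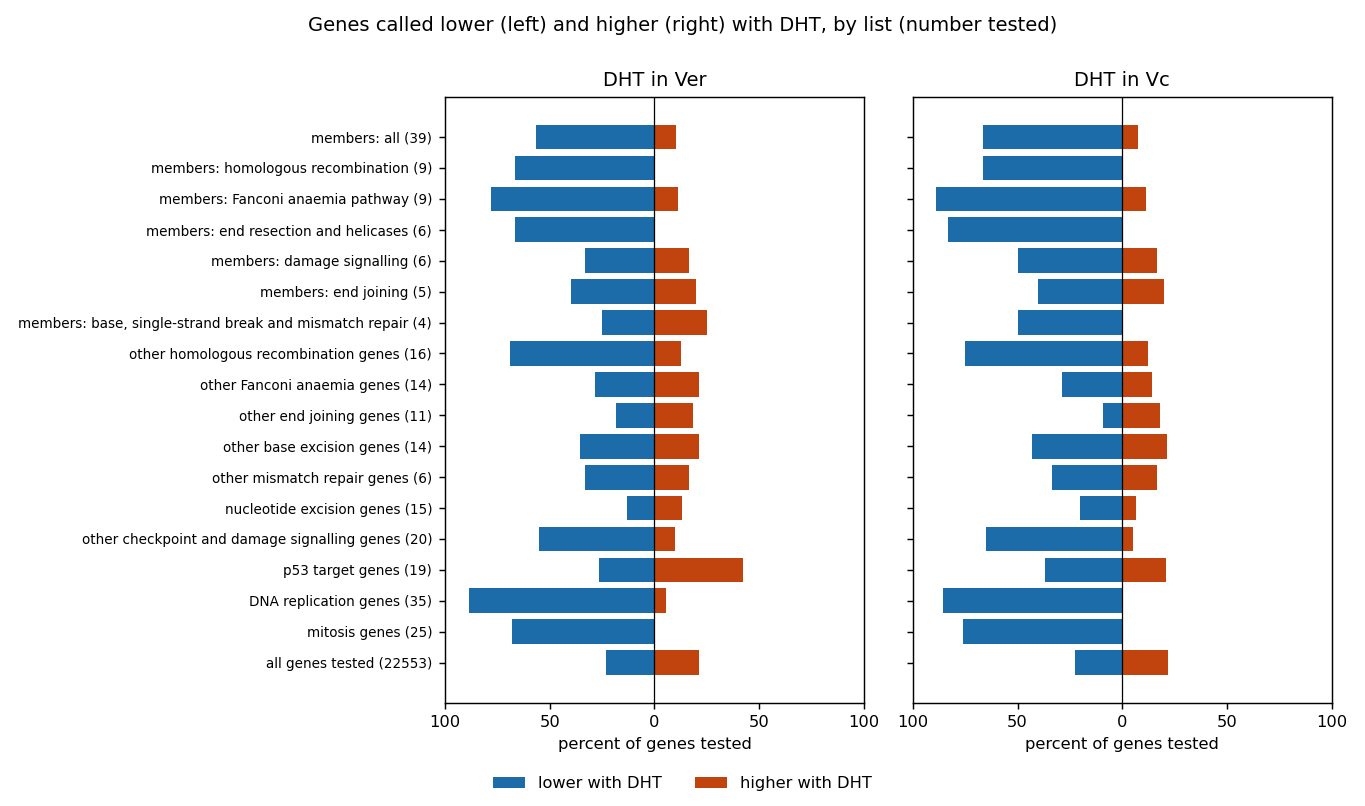
Percent of tested genes called lower (blue, left) and higher (orange, right) with DHT in each list, Ver in the left panel and Vc in the right, with the number tested in brackets and all genes tested in the last row. DNA replication and mitosis genes and the recombination and Fanconi anaemia members have long blue bars, nucleotide excision and the other end joining genes short ones, and all genes tested are near 22.9% lower and 21.2% higher in Ver.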

How the data were processed

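PolyA RNA of 16 VCaP libraries was sequenced. The authors deposited read counts per gene, 1 file per library, made with FastQC 0.11.7, Trimmomatic 0.36-5, HISAT2, SAMtools and HTSeq 0.11.1 on GRCh38, per the submitters' processing notes; the file names give unstranded union counting. The authors also deposited a normalized signal per gene and library, which equals the counts divided by 1 factor per library and was used for gene names only.

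Summary lines were set aside: reads in no gene were 45.0 to 50.6% of counted reads and ambiguous reads 7.09 to 8.55%. Counts entered the quasi-likelihood F test of edgeR 4.0.16, run under R 4.3.3 (filterByExpr by group, TMM, robust, two-sided, all 16 libraries in 8 groups, 8 residual degrees of freedom, Benjamini-Hochberg over 22553 genes) in 15 comparisons. SE is the larger of the quasi-likelihood and Poisson value, and 95% intervals are 1.96 SE to each side. Alternatives were DESeq2 1.42.0, its size factors in edgeR, no filter, a fit of the compared groups alone, leaving out each library, and a replicate block.

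Values in every library are given for the 2 members of each role with the largest mean change with DHT and the 2 with the largest untreated line difference; PRKDC, XRCC6, FANCF, ATR and FANCD2 are also given by library, chosen after their values were seen; other members appear by counts and log2 changes, and up to 2 genes of each list with the smallest p with DHT in Vc. Some genes that this rule names are not reported here. Members, roles and lists were chosen with earlier results of these data known. Positions, lengths and overlaps come from GENCODE 29, promoters from RefSeq. Pseudogene copies were found by gene name alone, no sequence was compared, and copies under other names were missed.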

Additional observations from a re-analysis of the deposited data

How the results depend on the processing

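Across the alternatives no called member changed direction. The number of members called with DHT ran from 23 to 24 in Ver (26 with all libraries) and from 23 to 26 in Vc (29) when single libraries were left out, and for both compounds against control from 13 to 21 in Ver (22) and from 20 to 24 in Vc (24). For enzalutamide on top of DHT it ran from 8 to 14 in Ver (16) and from 7 to 9 in Vc (11). For Ver against Vc it ran from 5 to 8 untreated (12), from 3 to 6 with DHT (9), from 5 to 7 with enzalutamide (8) and from 7 to 8 with both compounds (12). For the difference in the DHT response it ran from 0 to 1 (0). DESeq2 called 4 members for Ver against Vc untreated and 6 with both compounds, where edgeR called 12 each; the cause was not tested. Of 169 calls of a member in a comparison, 134 were kept by DESeq2, 166 with its size factors, 154 with no filter, 162 with the compared groups alone and 169 with the replicate block; over all left-out libraries 509 were kept and 167 lost. The replicate block moved 1 count, Ver against Vc with both compounds, to 13. The numbers do not pair the samples: over 28 pairs of groups, deviations of same-numbered libraries correlated between -0.023 and 0.028. With 2 libraries a group, members under about 10 CPM have wide intervals.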
